A study of Mus musculus with 9 samples.

Results

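Collagen genes are described here as they were counted in single cells of the mouse brain. The members are the rows of the deposited UMI table whose symbol is Col, a number, the letter a and a number, which gave 43 of the 18634 genes. The symbol Col4a3bp begins in the same way, belongs to a lipid transfer protein and is outside the rule, and Col10a1 is not analysed here. Brainstem, cortex and hypothalamus were dissociated from male C57BL/6 mice (C57BL/6 J in the methods) aged 9 to 11 weeks that had slept normally (NS), had been deprived of sleep for 12 h (SD) or had then been left to recover (RS), for 24 h by the methods (12 h or 24 h in different places of the labels). All mice were killed at the same circadian time, ZT12, and tissue of 3 mice was pooled into 1 library for each region and group. The 9 libraries carry unexplained codes in the table and are called 1 to 9 here in the order of those codes, a number that says nothing about region or sleep group. Library 7 held all 1999 barcodes of the published brainstem NS cell list as held here, against 5 to 13 in each of the other libraries. It is taken as the brainstem NS library. The list held here may be only a part of the published list. The other 8 were not assigned, so sleep groups and regions were not compared.

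A UMI is a tag that marks 1 captured transcript, so that PCR copies count once. Levels are UMIs per 1000000 UMIs (CPM) summed over the cells named, and shares are the percentage of cells with at least 1 UMI. Because each UMI comes from the 3′ end of 1 transcript, levels of different genes were compared without dividing by length. Brackets give exact 95% intervals (Poisson for levels, Clopper-Pearson for shares and ratios), which cover counting error only. With 1 pooled library for each region and group there is no biological replicate, no value has a test, and differences are read against these intervals. Libraries held 1522766 to 5488950 UMIs in 2575 to 3916 cells, with a median of 806 UMIs per cell over the whole table. The growth hormone gene Gh, a pituitary product, took 25.3%, 27.9% and 32.1% of the UMIs of libraries 4, 5 and 6 and at most 0.00755% in each of the others, which lowers the CPM of every other gene there. Of the 29015 barcodes, 549 occur in more than 1 library.

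Collagens are secreted or membrane-bound proteins whose chains wind around each other in a helix. Fibrillar collagens such as collagen I (Col1a1 and Col1a2 chains) and collagen III (Col3a1) build the fibers of connective tissue, which in the brain lies mainly in the meninges and along larger vessels. Collagen IV (Col4a1 to Col4a6) forms the network of basement membranes around vessels, collagen VI forms beaded filaments, and collagens XIII, XVII, XXIII and XXV stay anchored in the cell membrane. Decorin (Dcn) and lumican (Lum) are small proteoglycans that bind collagen fibrils and are made by fibroblasts.

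Collagen transcripts were few and spread over many cells. The 43 members took 10547 of 31468255 UMIs, and 6172 of the 29571 cells (20.9%) held at least 1 collagen UMI. Of these cells 68.7% held exactly 1. Only 308 cells held 5 or more, and 117 of them had Dcn + Lum of 2 or more UMIs. Counts were uneven between members. Col1a2 led with 1528 UMIs, followed by Col4a1 with 1243 and Col4a2 with 868, and these 3 genes took 34.5% of all collagen UMIs. The 16 members with at least 200 UMIs, which are the ones described one by one, took 80.3%. They are, after those 3, Col25a1 (724 UMIs), Col27a1 (594), Col8a2 (547), Col3a1 (444), Col1a1 (387), Col23a1 (367), Col18a1 (308), Col8a1 (297), Col9a3 (260), Col4a5 (237), Col6a1 (230), Col11a1 (228) and Col13a1 (204). The other 27 members had from 5 UMIs (Col28a1 and Col6a6) to 199 (Col6a2). By family, the 11 fibrillar genes held 35.2% of the collagen UMIs, the 6 basement membrane genes 24.7%, the 4 membrane-anchored genes 12.4%, the 9 fibril-associated genes 8.77%, the short-chain genes Col8a1 and Col8a2 8.0%, the 6 genes of collagen VI 5.83% and the multiplexins Col15a1 and Col18a1 4.16%. Col7a1, Col26a1 and Col28a1 together made up the small remainder.

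Across libraries 1 to 9, all collagens together stood at 234, 271, 219, 333, 347, 237, 424, 422 and 444 CPM. Libraries 7, 8 and 9 were the highest, and their intervals, from 400.1 to 463 CPM at the outside, lay above those of the other 6. That order was not kept when Gh, mitochondrial and hemoglobin UMIs were left out of the totals, where the levels were 256, 296, 236, 474, 518, 363, 501, 484 and 535 CPM and library 5 came second to library 9. The share of cells with a collagen UMI was 10.8%, 13.2%, 21.8%, 21.0%, 18.0%, 20.1%, 24.7%, 23.3% and 30.4% in libraries 1 to 9, at median depths of 402, 406, 854, 869, 565, 1055, 919, 744 and 1014 UMIs per cell. The lowest shares were in the shallowest libraries 1 and 2, while the deepest, library 6, was below libraries 3, 4, 7, 8 and 9. Of the 43 members, 29 were found in all 9 libraries.

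The families did not share 1 order of libraries. The fibrillar genes had a lowest level of 53.4 CPM (library 3), a median of 99.6 and a highest level of 185 (library 9). The membrane-anchored genes stood at 109.7, 101 and 51.0 CPM in libraries 4, 5 and 6, and at 13.3 to 24.8 CPM in the other 6. The short-chain genes were at 41.4, 45.0 and 61.1 CPM in libraries 7, 8 and 9 and at 5.72 to 19.3 CPM in the others. Some single genes had the same pattern. Col25a1, a membrane collagen known from neurons, stood in libraries 4, 5 and 6 at 56.5 (49.3 to 64.4), 58.4 (48.6 to 69.7) and 26.1 (22.0 to 30.7) CPM, and between 6.97 and 19.1 CPM in the other 6. Col23a1, another membrane collagen, had levels in libraries 4, 5 and 6 of 25.0 (20.3 to 30.4), 39.6 (31.6 to 49.0) and 15.7 (12.5 to 19.3) CPM, and between 3.28 and 7.22 CPM in the other 6. Col13a1, a membrane collagen of cell junctions, was found with 108 UMIs in library 4, 48 in library 6, 0 in library 2 and 1 to 15 in each other library. Libraries 4 and 5 were close in Col25a1 but not in Col13a1, where library 5 had 5 UMIs. Col19a1, a fibril-associated collagen, had 11, 31 and 58 of its 112 UMIs in libraries 1, 2 and 3, none in library 9 and at most 5 in any of the others.

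**Figure D1:**
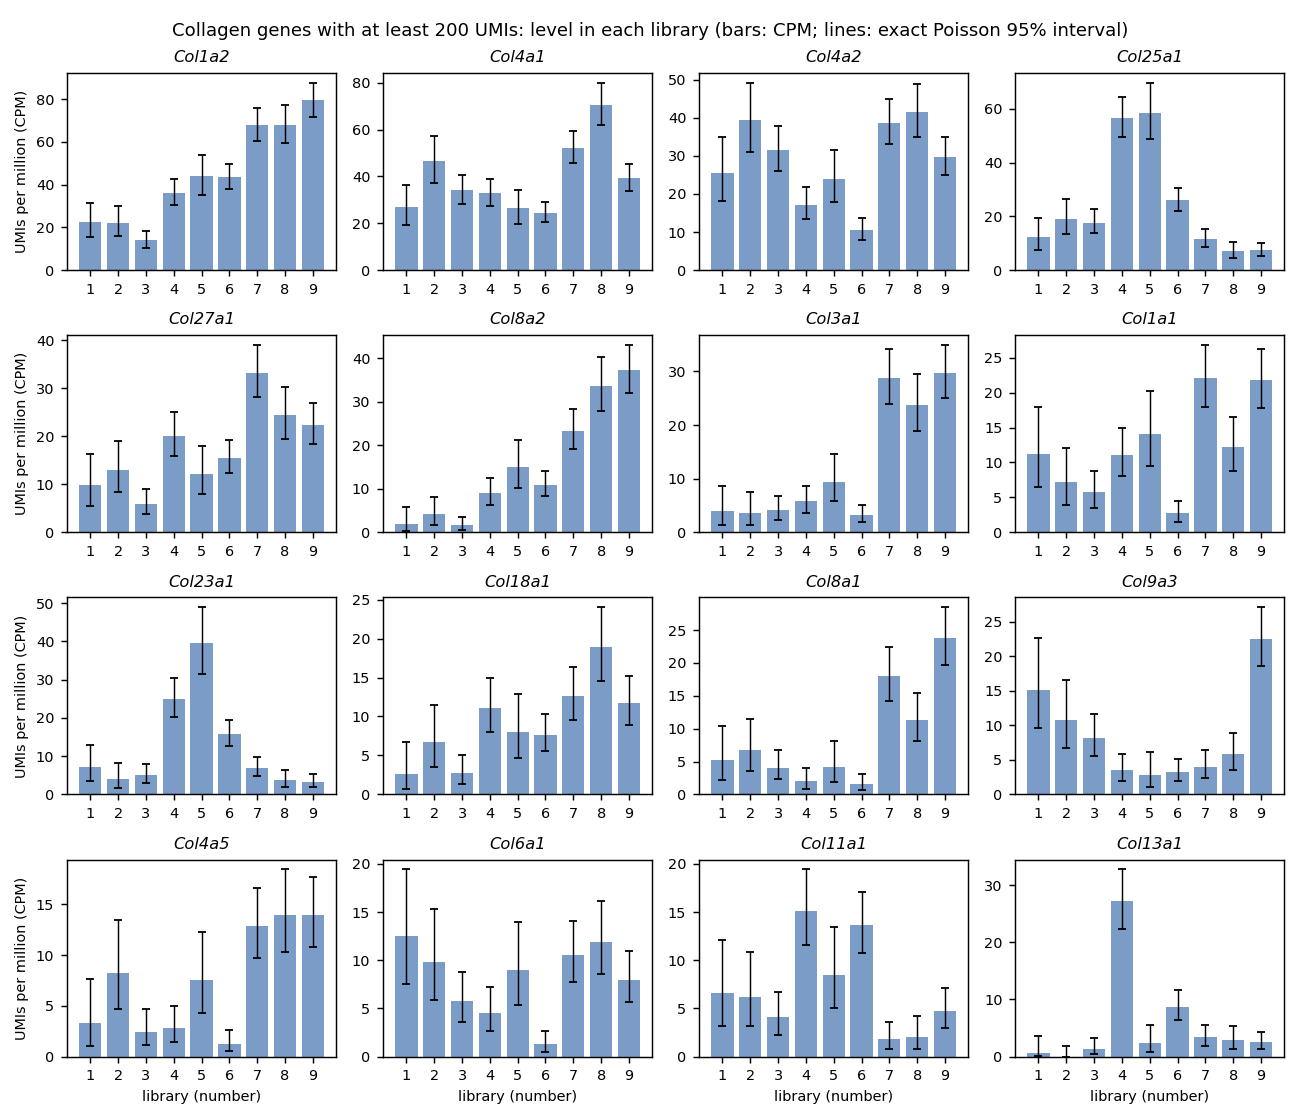
Level (CPM, linear axes starting at 0 and differing between panels) of the 16 collagen genes with at least 200 UMIs in libraries 1 to 9. Bars are single libraries and lines are exact Poisson 95% intervals. Col25a1 and Col23a1 stand highest in libraries 4, 5 and 6, and Col13a1 is highest in library 4 and low in library 5. Col8a2 rises above 20 CPM in libraries 7, 8 and 9 only.

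Cells with Dcn + Lum of 2 or more UMIs carried dense collagen counts, the densest of the marker classes when all libraries were summed. Among classes of 5 or more cells in a library they were not the densest in library 3, where 9 cells with Cldn11 and Slc47a1 stood at 2488 CPM, or in library 6, where 24 cells with Plvap stood at 1780 CPM. There were 397 of them (5, 9, 13, 41, 42, 24, 78, 53 and 132 in libraries 1 to 9), which is 1.34% of all cells, and they held 13.9% of all collagen UMIs. Their collagen level was 2974 (2824 to 3131) CPM, and 85.4% of them had a collagen UMI. By library the level was 2679, 5534, 1417, 5083, 3960, 1637, 3146, 3002 and 2747 CPM, lowest in library 3 and highest in library 2, where these rest on 13 and 9 cells. The level followed the amount of Dcn and Lum. Cells with neither gene were at 282 CPM, cells with a sum of 1 at 987 (900.1 to 1081), cells with a sum of 2 at 1901 (1654 to 2173) and cells with 3 or more at 3292 (3112 to 3479). Median depths of these 4 sets were 802, 1017, 996 and 962 UMIs. Thinned to 500 UMIs, 69.8% of the Dcn + Lum cells with enough UMIs still had a collagen UMI, against 7.98% of cells with the microglial genes Cx3cr1 and P2ry12 (85.4% and 11.3% before thinning, at median depths of 967 and 736 UMIs). Thinning left out 53 and 298 cells with fewer UMIs. Other classes, described below, came closer before thinning. The share was 82.4% in cells with Cldn11 and Slc47a1, 78.7% with Kl and Kcnj13, 76.5% with Rax and Scn7a and 58.3% with Plvap. Their median depths were 1988, 4829, 1228.5 and 810.5 UMIs.

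The labelling pair was checked on a longer marker list. All 6 other fibroblast genes on it (Igfbp2, Apod, Slc6a13, Pdgfra, Fmod and Islr) were at least 4 times as high in these cells as in the others, and 94.96% of the cells had at least 1 of them. Markers of other cells were also found in the Dcn + Lum cells. Of the 397 cells, 216 also passed another marker pair, 171 of them the pericyte pair Vtn and Kcnj8, and the 6 pericyte genes on the list summed to between 327 and 4720 CPM over the libraries. The 6 pituitary endocrine genes, Gh among them, summed to 76351, 9271 and 93886 CPM in the Dcn + Lum cells of libraries 4, 5 and 6, where the 8 fibroblast genes summed to 23096, 17797 and 7067, and to at most 231 CPM elsewhere. Gh alone took 25.3%, 27.9% and 32.1% of all UMIs of libraries 4, 5 and 6. The pituitary sums there thus lay below the level of the whole library. Choroid plexus genes summed to 1771 CPM in library 9 and at most 461 in the others. The pericyte and choroid plexus sums are not set against other cells here. Without these 216 cells the collagen level was 3251 CPM. No doublet caller was used, and how far mixed droplets enter these values was not tested.

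Which collagens were high in these cells was read from libraries 7, 8 and 9, where they number at least 50. A gene counted as called when its CPM + 10 in the class was at least 4 times that in the other cells of the library, which took at least 5, 3 and 6 UMIs in libraries 7, 8 and 9. In library 7, 10 of the 43 members were called, while 1.1% of all genes were. In library 8 it was 10 members against 1.17% of all genes, and in library 9 9 members against 0.928%. In all 3 libraries 6 members were called, namely Col1a1, Col1a2, Col3a1, Col6a1, Col12a1 and Col15a1. Col6a2, Col9a2, Col13a1 and Col18a1 were called in 2 of them, and Col4a6, Col5a2 and Col8a1 in 1. The median ratio over the 43 members was 2.15, 1.84 and 1.45 in the 3 libraries, where the median over all genes was 0.977, 0.903 and 0.959.

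The chains of collagens I and III stood far above the rest. In libraries 7, 8 and 9 Col1a2 was at 855 (709.96 to 1021), 1016 (789 to 1288) and 845 (715 to 993) CPM, against 41.8, 49.2 and 50.8 CPM in their other cells. Col3a1 was at 441 (339 to 565), 388 (254 to 569) and 439.8 (347 to 549.6) CPM, against 15.1, 16.6 and 14.5. Col1a1 was at 455 (352 to 581), 314 (194 to 479) and 359.8 (276 to 460.4) CPM, against 7.67, 6.22 and 9.15. The 3 libraries overlapped each other for each gene. Col1a2 was the most widely found, in 55.2% of all Dcn + Lum cells, and 29.2% of the cells had none of the 3 genes at a median depth of 831.5 UMIs, against 1443 UMIs for the 11.8% with all of them.

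Collagens that attach to or lie between fibrils were also high. Col6a1, a chain of the beaded filaments, was at 126, 89.6 and 97.1 CPM in libraries 7, 8 and 9, against 6.74, 10.4 and 4.68 in the other cells. Col12a1, which binds to the surface of fibrils, was at 126, 105 and 119.9 CPM, against 4.65, 3.56 and 5.11. Col15a1, a collagen beneath basement membranes, was at 105, 105 and 91.4 CPM, against 4.42, 3.85 and 2.34. These are counts of 6 to 21 UMIs a library, of genes named because they were called in all 3 libraries. Col18a1, from which endostatin is cut, was at 70.1, 164 and 80.0 CPM in the 3 libraries, and Col13a1 at 56.1, 134 and 34.3. Over all libraries 33 members were found in Dcn + Lum cells, and 10 were at 0, among them Col9a3 and Col6a5, which had 260 and 122 UMIs in the table. The upper limit for a member at 0 was 7.47 CPM.

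**Figure D2:**
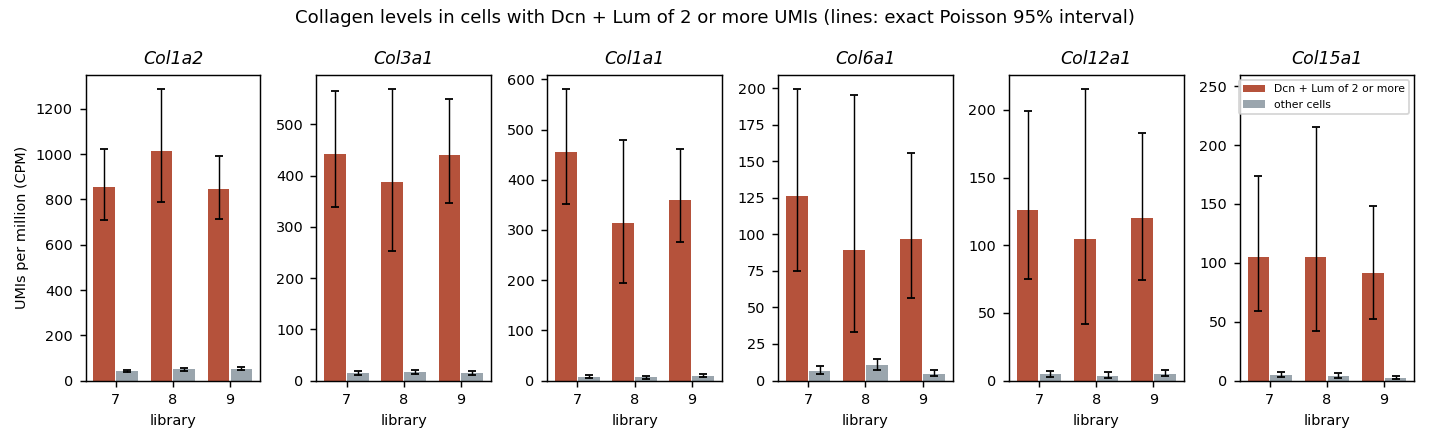
Level (CPM, linear axes starting at 0 and differing between panels) of the 6 members called in all of libraries 7, 8 and 9, in cells with Dcn + Lum of 2 or more UMIs (red) and in all other cells of the library (grey). Lines are exact Poisson 95% intervals. The genes were chosen by this difference, and red bars stand at similar heights in the 3 libraries.

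The transcripts of the 2 collagen I chains lay mostly outside the Dcn + Lum cells, but the chains differed. They had 639 of the 1915 UMIs of Col1a1 and Col1a2, or 33.4% (31.3 to 35.5%), and between 5.88% in library 1 and 46.8% in library 7. The share was 52.7% (47.6 to 57.8%) for Col1a1 and 28.5% (26.2 to 30.8%) for Col1a2, and in library 7 66.3% (56.1 to 75.6%) and 40.4% (34.8 to 46.2%). Col1a1 to Col1a2 was 204 to 435 UMIs in Dcn + Lum cells, a ratio of 0.469 (0.395 to 0.555), and 183 to 1093 in all others, a ratio of 0.167 (0.142 to 0.196). In cells with the smooth muscle genes Acta2 and Myh11 it was 3 to 116. The ratio inside was above that outside in libraries 2 to 9, with intervals apart in libraries 4, 6, 7 and 9, and in library 1 Dcn + Lum cells had 0 and 3 UMIs of the 2 chains. Library 6 stood apart, with 15 UMIs of Col1a1 and 239 of Col1a2, a ratio of 0.0628 (0.0346 to 0.106), below that of the other 8 libraries. Col1a1 had its lowest library level there, at 2.73 CPM. Outside the Dcn + Lum cells Col1a2 was at 41.1 CPM in library 6 and at 41.8, 49.2 and 50.8 CPM in libraries 7, 8 and 9. It was at 12.9 to 30.9 CPM in libraries 1 to 5. Of the Col1a2 UMIs of library 6, 224 lay outside the Dcn + Lum cells, in 209 cells of which 194 had 1 UMI. There Col1a2 was at 47.6 CPM in cells with Aldoc and Slc1a3, 44.0 in cells with Snap25 and Syt1 and 41.2 in cells that passed no fixed pair. These cells of unlike markers had like levels. Cells with Cyp2f2 and Aldh1a2 were at 42.1 CPM, but over all libraries 207 of the 336 also passed Aldoc and Slc1a3. In cells with Tmem212 and Ccdc153 Col1a2 was at 17.7 (5.75 to 41.3) CPM. The part of free RNA in these counts was not tested.

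**Figure D3:**
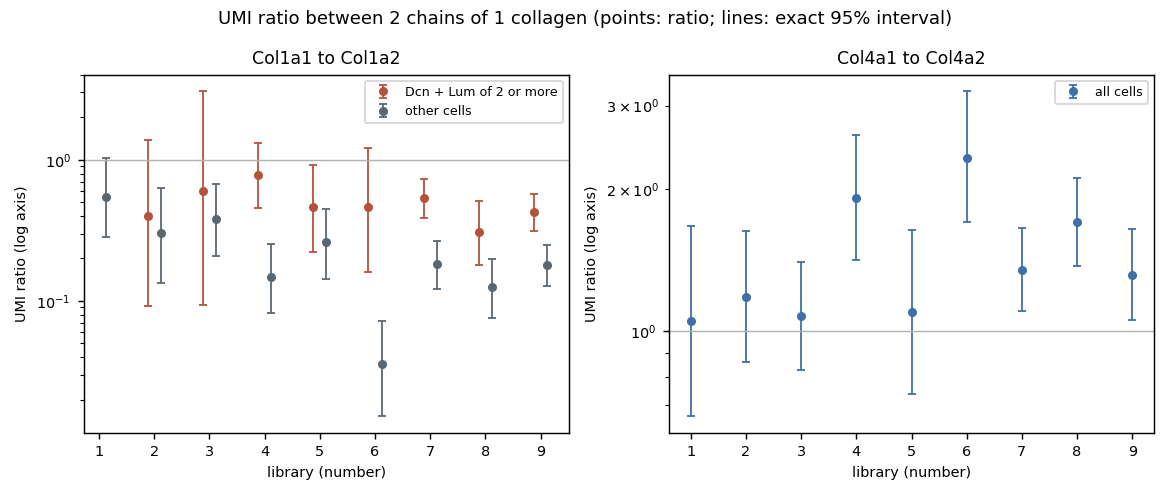
Ratio of UMIs between 2 chains of 1 collagen in libraries 1 to 9 (log axis, the grey line marks 1). Left, Col1a1 to Col1a2 in cells with Dcn + Lum of 2 or more UMIs (red, library 1 not drawn since Col1a1 was at 0) and in the other cells (grey). Right, Col4a1 to Col4a2 in all cells. Lines are exact Clopper-Pearson 95% intervals, and grey library 6 lies lowest on the left.

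Col4a1 and Col4a2 encode the chains of the common collagen IV molecule of basement membranes, and their genes lie head to head. In the GENCODE annotation of GRCm38, Col4a1 runs on the minus strand of chromosome 8 from 11198423 to 11312826 and Col4a2 on the plus strand from 11312805 to 11449287. The RefSeq windows of 250 bases before to 50 after the transcription start, chr8:11312777-11313076 (minus strand) and chr8:11312555-11312854 (plus strand), share 78 bases, and 22 bases are transcribed from both strands. They are printed here, with the windows of Col1a2 (chr6:4505368-4505667, plus strand) and Col3a1 (chr1:45311288-45311587, plus strand), which were high in the same cells but lie on different chromosomes. All are RefSeq sequences of GRCm38.p6 in the direction of the gene, and capitals mark matches on either strand. The motifs searched were TATAAA (printed as TTTATA where it lies on the other strand), then CCAAT (printed as ATTGG) and last GGGCGG (printed as CCGCCC). No 2 of these matches overlap within a window.
Col4a1: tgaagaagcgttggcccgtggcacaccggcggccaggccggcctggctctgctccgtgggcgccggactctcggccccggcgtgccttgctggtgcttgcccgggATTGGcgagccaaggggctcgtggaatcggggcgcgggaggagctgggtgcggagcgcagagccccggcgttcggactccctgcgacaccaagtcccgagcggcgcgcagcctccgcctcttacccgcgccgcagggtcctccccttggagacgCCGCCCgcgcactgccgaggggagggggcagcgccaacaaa
Col4a2: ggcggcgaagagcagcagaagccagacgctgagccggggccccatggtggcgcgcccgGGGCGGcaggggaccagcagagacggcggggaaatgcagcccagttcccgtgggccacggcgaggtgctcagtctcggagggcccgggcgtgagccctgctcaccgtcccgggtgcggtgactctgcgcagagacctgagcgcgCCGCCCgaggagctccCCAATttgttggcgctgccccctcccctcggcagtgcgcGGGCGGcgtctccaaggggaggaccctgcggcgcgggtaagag
Col1a2: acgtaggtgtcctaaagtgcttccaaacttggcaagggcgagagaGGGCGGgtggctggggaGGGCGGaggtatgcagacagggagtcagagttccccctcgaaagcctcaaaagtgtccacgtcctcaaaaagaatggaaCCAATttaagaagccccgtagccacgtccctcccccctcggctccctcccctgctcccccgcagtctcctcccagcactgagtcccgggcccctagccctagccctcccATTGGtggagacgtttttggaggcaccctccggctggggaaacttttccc
Col3a1: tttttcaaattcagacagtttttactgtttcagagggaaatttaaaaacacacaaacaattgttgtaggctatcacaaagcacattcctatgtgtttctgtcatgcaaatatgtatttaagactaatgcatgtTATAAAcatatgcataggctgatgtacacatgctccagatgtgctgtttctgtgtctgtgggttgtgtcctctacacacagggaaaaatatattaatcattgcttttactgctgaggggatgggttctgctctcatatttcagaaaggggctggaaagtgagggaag
The pair of collagen IV windows held CCAAT once each, GGGCGG at 1 place (Col4a1) and 3 places (Col4a2) and no TATAAA, Col1a2 held CCAAT and GGGCGG at 2 places each, and Col3a1 held a single TATAAA. The GGGCGG match of Col4a1 lies in the 78 shared bases and is 1 of the 3 of Col4a2, read from the other strand. A window was given for 34 of the 43 members, with 37 windows in all. GGGCGG was in 23 of these and in 35.7% of all 32851 windows, CCAAT was in 13 and in 37.4% of all windows, and TATAAA was in 4 and in 13.6% of all windows. A match is a description of the letters and does not show that a factor binds there.

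Both genes were highest in vascular cells. Taking cells that passed exactly 1 marker pair and summing libraries, Col4a1 was at 129.7 (115 to 145) CPM in cells with the endothelial genes Cldn5 and Flt1 and at 124 (107 to 142) in cells with Acta2 and Myh11, and Col4a2 was at 85.1 and 93.9 CPM. In cells with Cx3cr1 and P2ry12 they were at 5.14 and 4.49 CPM. In 120 cells with Plvap of 2 or more UMIs, a gene of fenestrated endothelium, Col4a1 reached 455 (348 to 584) CPM and Col4a2 313 (226 to 423), and Col13a1 was at 142 (85.3 to 221) and Col15a1 at 74.5 (35.7 to 137). Libraries 4, 5 and 6 held 74, 14 and 24 of these 120 cells. The Plvap threshold, like those on Rax and Scn7a, Kl and Kcnj13, Cyp2f2 and Aldh1a2, and Cldn11 and Slc47a1 below, was chosen after the data had been seen, and such cells may pass a fixed pair too. Within Cldn5 and Flt1 cells the Col4a1 level was lowest in library 9, at 80.7 (58.1 to 109) CPM, and highest in library 6, at 474 (245 to 827) in 24 cells. By the 4-fold rule Col4a1 was called in these cells in libraries 2, 3, 4 and 5 and Col4a2 in libraries 1, 4 and 5. The members called numbered 2, 1, 1, 2, 2, 0, 0 and 0 in libraries 1 to 5 and 7 to 9, where 2.74%, 2.45%, 2.47%, 2.22%, 3.1%, 1.13%, 1.0% and 0.891% of all genes were. The member called beside Col4a2 in library 1 was Col6a6, which had 5 UMIs in the whole table. In these cells 1 UMI was worth 5.29 to 32.0 CPM in libraries 1 to 5 and 1.24 to 2.04 CPM in libraries 7 to 9.

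The 2 chains were not counted in a fixed proportion. Col4a1 to Col4a2 was 1243 to 868 over all cells, a ratio of 1.43 (1.31 to 1.56). It was near 1 in libraries 1, 3 and 5 (1.05, 1.08 and 1.10) and highest in library 6, at 2.33 (1.70 to 3.22), whose interval lay above those of libraries 1, 2, 3, 5, 7 and 9. Cells with Cyp2f2 and Aldh1a2, 170 of whose 336 were from library 6, had 50 UMIs of Col4a1 and 10 of Col4a2 over all libraries. The 170 cells of library 6 had 30 and 3, and their part in the ratio of library 6 was not tested. Of the other collagen IV chains, known from the basement membranes of kidney and eye, Col4a5 was at 56.7 CPM in Dcn + Lum cells, 36.9 in Acta2 and Myh11 cells and 31.2 in Vtn and Kcnj8 cells, and at 1.31 CPM in Cldn5 and Flt1 cells. Col4a3 and Col4a4, another head-to-head pair, had 90 and 114 UMIs in the table.

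Cells with smooth muscle markers held further collagens. In 1643 cells with Acta2 and Myh11, Col1a2 was at 72.6 CPM, Col18a1 at 54.5 (43.6 to 67.2), Col8a1 at 46.3 (36.4 to 58.2) and Col3a1 at 37.6 (28.7 to 48.3). Col3a1 to Col1a1 was 60 to 3 UMIs in these cells and 210 to 204 in Dcn + Lum cells. Col18a1 was at 7.86 CPM in Cldn5 and Flt1 cells. By the 4-fold rule 5, 3, 5, 2, 4, 0, 0 and 0 members were called in Acta2 and Myh11 cells of libraries 1 to 5 and 7 to 9, where 1.81%, 1.86%, 1.66%, 1.72%, 2.46%, 0.907%, 0.869% and 0.746% of all genes were. Col3a1 and Col18a1 were among them in libraries 1, 2, 3 and 5, Col8a1 in libraries 1, 2 and 3 and Col4a1 in libraries 1, 3, 4 and 5. In Acta2 and Myh11 cells 1 UMI was worth 12.0 to 33.2 CPM in libraries 1 to 5 and 1.92 to 2.51 CPM in libraries 7 to 9. A call therefore took fewer UMIs in libraries 1 to 5. In cells with Vtn and Kcnj8, Col1a2 was at 213 (177 to 254) CPM, Col4a1 at 78.0 (56.9 to 104), Col3a1 at 72.8 (52.5 to 98.4) and Col1a1 at 60.7 (42.2 to 84.4), all below the Dcn + Lum cells except for Col4a1, whose intervals overlapped. The 171 cells passing both pairs count as Dcn + Lum cells only, so part of this difference may come from how the classes were drawn.

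Outside vessels and fibroblasts, several collagens stood out in cells with other markers. Col8a2, a short-chain collagen known from the cornea, was at 126 (109.7 to 143) CPM in 1146 cells with the ependymal genes Tmem212 and Ccdc153. In libraries 4 to 9, the ones with such cells, its levels there were 198, 128, 113, 149, 147 and 96.0 CPM. The Rax and Scn7a cells described below, some of which pass this pair too, were at a like level of 124 (98.5 to 155) CPM. Col8a2 was called by the 4-fold rule in libraries 4 to 8 and not in library 9. The members called numbered 3, 3, 2, 1, 1 and 0 in these 6 libraries, the others being Col5a3 and Col6a5, and 3.79%, 3.14%, 3.85%, 3.05%, 2.35% and 1.25% of all genes were called. Its partner Col8a1 had 5 UMIs in these cells against 226 of Col8a2, and 74 UMIs against 6 in Acta2 and Myh11 cells, so that the counts of the 2 chains lay mostly apart in these classes. Col6a5, a long chain of collagen VI, had 63 of its 122 UMIs in the Tmem212 and Ccdc153 cells, at 65.8, 76.8 and 95.7 CPM in libraries 4, 5 and 6 and at 3.91, 2.72 and 25.9 in libraries 7, 8 and 9. Its intervals in libraries 7 and 8 (up to 21.8 and 15.1 CPM) lay below those in libraries 4, 5 and 6 (from 28.4 CPM up). Kl and Kcnj13 mark the epithelium of the choroid plexus. In the 75 cells with these genes, 71 of them from library 9, Col9a3, a fibril-associated collagen, was at 165 (126 to 212) CPM, Col8a1 at 125 (91.2 to 166) and Col8a2 at 116 (84.3 to 157).

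Col27a1, a fibrillar collagen known from cartilage, was highest in cells with Cx3cr1 and P2ry12. Its level there was 104 (88.6 to 121) CPM, against 34.7 (21.2 to 53.5) in Vtn and Kcnj8 cells, the next class, and 2.62 in Cldn5 and Flt1 cells. Col27a1 held 162 of the 268 collagen UMIs of the cells with Cx3cr1 and P2ry12. In libraries 7, 8 and 9 it was at 109.5, 118 and 76.3 CPM in these cells. By the 4-fold rule Col27a1 was the single member called in libraries 1, 2, 3, 7 and 8, where 2.04%, 3.52%, 2.62%, 1.56% and 1.42% of all genes were called, and no member was in library 9 beside 1.08%. A single member is 2.33% of the 43, below the share of all genes in libraries 2 and 3. In libraries 1, 2 and 3 these cells held 8, 5 and 6 collagen UMIs, and 1 UMI was worth 19.3, 39.2 and 27.7 CPM. It was worth 1.35 and 2.96 CPM in libraries 7 and 8. The calls in libraries 1, 2 and 3 therefore rest on few UMIs. Col19a1, by contrast, was found in cells with the neuronal genes Snap25 and Syt1, which held 86 of its 112 UMIs, at 17.3, 31.5 and 24.0 CPM in libraries 1, 2 and 3. In such cells of libraries 4 to 9 there was 1 UMI in all. The upper limits were 10.0 and 18.9 CPM in libraries 4 and 6 (290 and 204 such cells) and 34.9 to 54.5 CPM in libraries 5, 7, 8 and 9 (49 to 128 cells). The limit of library 4 lay below the intervals of libraries 2 and 3 (from 20.4 and 17.8 CPM up) but within that of library 1 (8.31 to 31.9), and the limit of library 6 lay below that of library 2 only.

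The membrane collagens Col25a1 and Col23a1 were highest in the 260 cells with 2 or more UMIs of Rax, a transcription factor of tanycytes, and Scn7a together, where Col13a1 was second to the Plvap cells. For Col23a1 and Col13a1 the intervals of the highest and second class overlapped, the second for Col23a1 being cells with Cldn11 and Slc47a1 at 82.7 (47.3 to 134) CPM. Col25a1 was at 271 (232 to 315) CPM in them, Col23a1 at 134 (107 to 166) and Col13a1 at 88.2 (66.6 to 115). These sums hide a split between libraries. Col25a1 was at 1053, 836 and 374 CPM in libraries 4, 5 and 6 (67, 41 and 66 cells) and had 0 UMIs in libraries 7, 8 and 9 (6, 31 and 48 cells), where the upper limits were 59.0, 29.4 and 20.8 CPM. Col23a1 was at 515 (372 to 693), 568 (342 to 886) and 145 (90.0 to 222) CPM in libraries 4, 5 and 6 and had 0, 1 and 1 UMIs in libraries 7, 8 and 9. Scn7a gave most of the UMIs behind the threshold in each of libraries 4 to 9, with 165, 81, 132, 23, 72 and 113, against 57, 24, 52, 0, 0 and 2 of Rax. Cells with a Rax UMI numbered 37, 17 and 37 in libraries 4, 5 and 6, where they held 51, 16 and 33 of the 88, 28 and 54 Col25a1 UMIs, and the rest lay in cells in which Rax was not found. Of the 260 cells, 133 also passed Aldoc and Slc1a3 and 98 Tmem212 and Ccdc153. Cells with the astrocyte genes Aldoc and Slc1a3 that did not pass Rax and Scn7a had Col25a1 at 74.9 (50.9 to 106), 194 (138 to 264) and 41.7 (25.5 to 64.5) CPM in libraries 4, 5 and 6, and at 0 to 11.7 CPM in the other libraries. In the same cells Col23a1 was at 48.3 (29.5 to 74.6), 189 (134 to 258) and 35.5 (20.7 to 56.8) CPM, and at 0 to 19.4 CPM in the other libraries.

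Cells with Cldn11 and Slc47a1 also held dense collagen counts. These 85 cells, none with Dcn + Lum of 2 or more UMIs, had a collagen level of 1686 CPM, with Col1a2 at 372 (291 to 469), Col6a2 at 196 (139 to 269.7), Col6a1 at 165 (113 to 234), Col8a1 at 139.6 (92.0 to 203), Col25a1 at 134 (87.8 to 197) and Col12a1 at 129 (83.7 to 191) CPM. Compared with Dcn + Lum cells, Col1a2, Col1a1 at 67.2 (35.8 to 115) and Col3a1 at 98.2 (59.1 to 153) CPM lay below, Col6a2 and Col25a1 lay above, and Col6a1, Col12a1 and Col8a1 overlapped. They came from 8 libraries, 26 of them from library 7. Col11a1, a fibrillar collagen known from cartilage, had its highest level in another class, at 42.9 (30.5 to 58.7) CPM in cells with Cyp2f2 and Aldh1a2. This interval overlapped that of the Rax and Scn7a cells, at 29.9 (18.0 to 46.7) CPM.

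**Figure D4:**
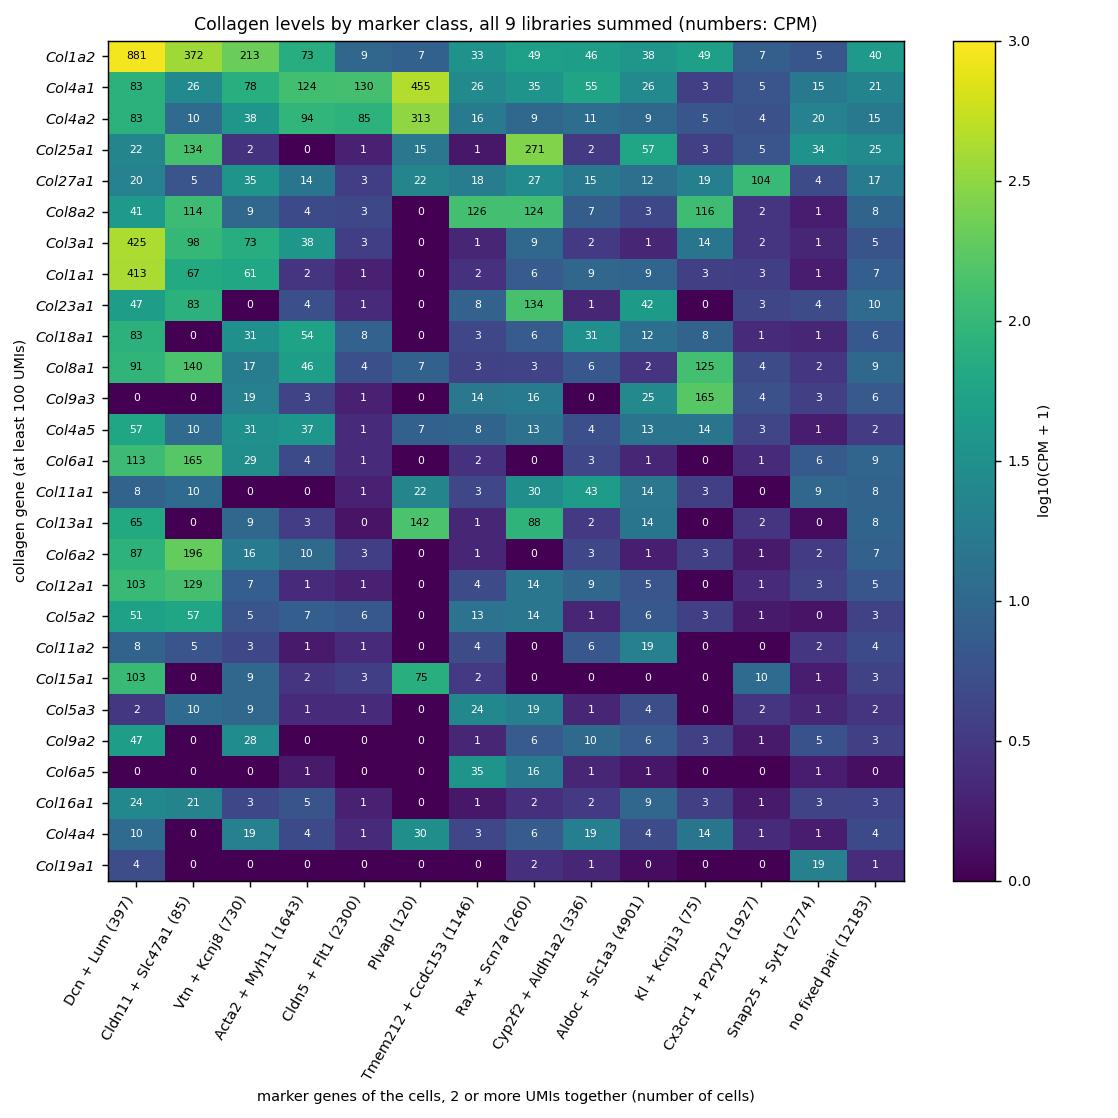
Level of the 27 collagen genes with at least 100 UMIs (rows, most UMIs at the top) in cells grouped by marker genes (columns, with the number of cells), all 9 libraries summed. Color is log10(CPM + 1) and the number in each field is the CPM. Col1a2, Col3a1 and Col1a1 are brightest in the Dcn + Lum column, Col4a1 and Col4a2 in the Plvap column and Col27a1 in the Cx3cr1 + P2ry12 column.

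In library 7 listed cell types could be set beside these values. The 1999 listed cells fall into 12 types, 8 of them with at least 50 cells. Cells listed as pericytes had the highest collagen level of these 8, at 1893 (1678 to 2128) CPM in 168 cells, followed by vascular smooth muscle cells (VSMCA) at 467 (394 to 550.3), astrocytes at 335 (254 to 434), ependymocytes (EPC) at 311 (233 to 407), glutamatergic neurons at 267 (146 to 448), endothelial cells at 254 (217 to 296), macrophages at 157 (83.4 to 268) and microglia at 136 (106 to 172). The pericyte interval lay above all others and that of VSMCA above those of endothelial cells, macrophages and microglia. Each of the types from VSMCA to microglia overlapped its neighbour in this order. The pericyte level lay above its interval in cells of at least 1000 UMIs and below it without Dcn + Lum cells. Subtracting the microglia level lowered endothelial cells and VSMCA. These values are given in the closing section. In smaller types, 18 cells listed as other neurons were at 577 (336 to 924) CPM and 19 hemoglobin-expressing vascular cells (HbVC) at 45.5 (5.51 to 164).

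Among the 8 types, 4 members (Col1a1, Col1a2, Col3a1 and Col25a1) had a highest type whose interval lay above those of all the others. In pericytes, Col1a2 was at 534 (423 to 666) CPM, Col3a1 at 352 (263 to 461) and Col1a1 at 209.6 (142 to 297), against 51.9 CPM of Col1a2 and 19.5 of Col3a1 in VSMCA and 17.6 of Col1a1 in astrocytes. Col13a1 was found in none of these types but pericytes, with 7 UMIs, at a level whose interval (19.0 to 97.5 CPM) overlaps what the smaller types allow at 0. Col8a2 was highest in EPC at 106 (62.6 to 167) CPM, Col25a1 in glutamatergic neurons at 153 (65.9 to 301) on 8 UMIs in 4 cells, and Col11a2, a fibrillar collagen known from cartilage, in astrocytes at 47.1 (20.3 to 92.7). Col27a1 was highest in microglia, at 90.7 (66.4 to 121) CPM, with pericytes next at 40.6 (14.9 to 88.3), so these intervals overlapped. By the 4-fold rule against the other listed cells, 5 members were called in pericytes (Col1a1, Col1a2, Col3a1, Col13a1 and Col15a1) beside 1.11% of all genes. In glutamatergic neurons 2 were (Col19a1 and Col25a1) beside 5.13%, and 1 each in EPC (Col8a2, 3.36%), astrocytes (Col11a2, 2.28%) and microglia (Col27a1, 1.8%). None was called in endothelial cells beside 1.55%, VSMCA beside 0.955% or macrophages beside 0.869%. The call of Col19a1 rests on 2 UMIs in 1 cell, at 38.1 (4.62 to 138) CPM, where 1 UMI is worth 19.1 CPM. Col4a1 was nonetheless at 111 (86.9 to 139.8) CPM in endothelial cells and 110.4 (76.4 to 154) in VSMCA, and at 9.86 in microglia.

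Cells listed as pericytes were mixed in Dcn and Lum. Of the 168, 38 had Dcn + Lum of 2 or more UMIs, and these had a collagen level of 3177 (2710 to 3703) CPM and Col1a2 at 1027 (769 to 1343). The other 130 were at 1204 (995 to 1445) CPM, with Col1a2 at 270.0 (176 to 396), and the 121 with neither Dcn nor Lum at 770.4 (598 to 977), with Col1a2 at 227 (138 to 349.9). In those 121 cells Col1a1 was at 45.3 (12.3 to 116) CPM on 4 UMIs and Col3a1 at 68.0 (24.9 to 148) on 6, and these intervals met those of astrocytes for Col1a1 (3.64 to 51.6) and of VSMCA for Col3a1 (7.15 to 42.4). The 38 cells held 24 of the 31 Col1a1 UMIs of listed pericytes. The depth differed, with a median of 1331.5 UMIs in the 38 cells and 670.5 in the 130. Single cells weigh in these sums. A cell with 25 Col3a1 UMIs, the most of any member in 1 cell of the table, had Dcn + Lum of 1, and it gave 25 of the 31 Col3a1 UMIs and 41 of the 116 collagen UMIs of the 130 cells, whose collagen level was 802 (631 to 1005) CPM without it. Without it Col3a1 in listed pericytes was 186 (123 to 271) CPM. Cells not on the list as held here, 1732 in library 7, included 30 with Dcn + Lum of 2 or more and a collagen level of 3620 (3175 to 4109) CPM there. Absence from this list does not show that the study left a cell without a type.

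The label of 1 listed type went against most of its markers. The 43 cells listed as oligodendrocytes had a collagen level of 1719.8 (1455 to 2019) CPM, yet 6 of 8 oligodendrocyte genes checked (Mag, Mobp, Cnp, Olig2, Sox10 and Ermn) were at 0 and Mbp and Olig1 had 1 UMI each. Cldn11, which is also made by myelinating oligodendrocytes and was not among the 8, was found with 63 UMIs in 22 of the 43 cells, at 727 CPM against 3.24 in the other listed cells. The genes with the highest ratio to the other listed cells were Prg4, Dapl1, Cldn11, Nov, Igfbp6, Rspo3, Cdh1, Tspan8, Slc47a1 and Smoc2. Their collagens were Col1a2 at 369 (253 to 521) CPM, Col8a1 at 185 (106 to 299.9), Col6a1 and Col6a2 at 173 (96.9 to 286) each, Col3a1 at 139 (71.6 to 242) and Col12a1 and Col25a1 at 115 (55.4 to 212) each. They are called here by their leading genes only.

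**Figure D5:**
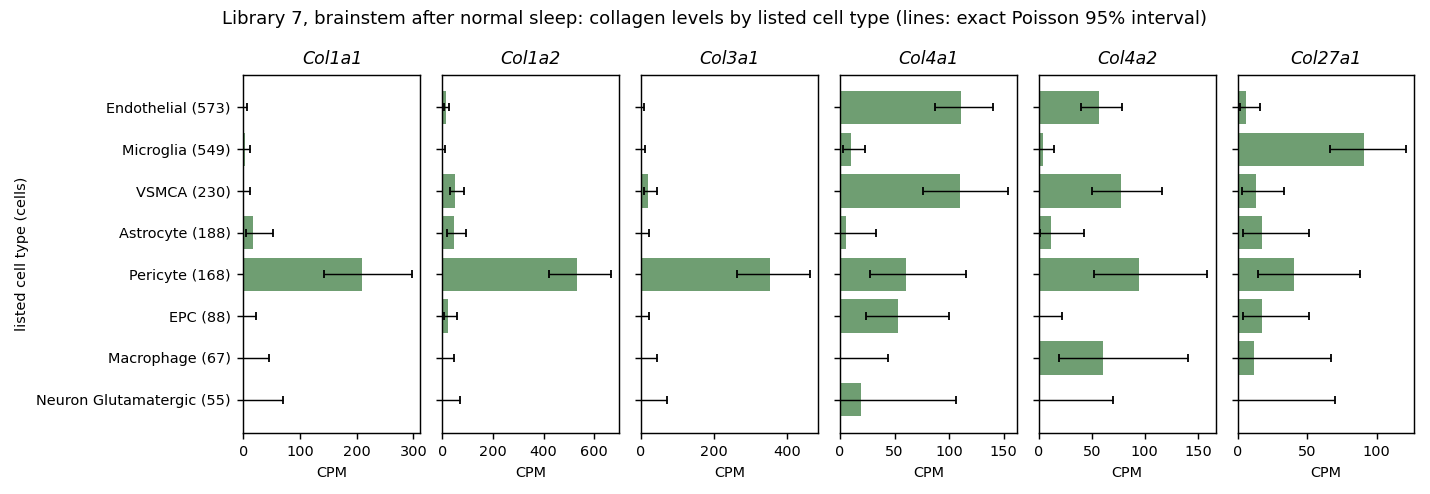
Level (CPM, linear axes starting at 0 and differing between panels) of 6 collagen genes in the listed cell types of library 7 with at least 50 cells (numbers in brackets). Lines are exact Poisson 95% intervals. Collagen I and III chains stand out in pericytes, Col4a1 and Col4a2 are shared by endothelial cells, VSMCA and pericytes, and Col27a1 is highest in microglia.

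Genes that make, process, hold or degrade collagen were read with the same 4-fold rule in Dcn + Lum cells of libraries 7, 8 and 9, where 1.1%, 1.17% and 0.928% of all genes were called. Of 18 genes of chain folding and hydroxylation, 1 was called in library 7 (P3h3, a prolyl hydroxylase) and 0 in libraries 8 and 9, with medians of 1.15, 1.06 and 1.40. Of 11 genes of propeptide processing and cross-linking, 3, 1 and 2 were called, with Pcolce, an enhancer of procollagen processing, in all 3 libraries. Of 16 laminins, nidogens and other basement membrane partners, 5, 5 and 4 were called, with Lamc3, a laminin chain, and Nid1, which links laminin to collagen IV, in all 3. Of 9 collagen receptors, 1 was called in each, the uptake receptor Mrc2. Of 8 proteases and inhibitors, 0, 1 and 2 were called. The small proteoglycans other than Dcn and Lum, which organize fibrils, were called most often, 5, 5 and 4 of 6, with Bgn, Fmod, Ogn and Omd in all 3 libraries, and Fmod is also on the fibroblast marker list. These lists were described by counts and medians only.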

How the data were processed

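Brain cells of 9 pooled libraries were measured by 10x Chromium 3′ sequencing. The authors deposited 1 table of raw UMI counts per gene and cell, from the filtered output of Cell Ranger 2.2.0 on GRCm38, with R 3.5.3 also named in the submitters' notes, and the annotation release is not given in the sources used here. The values are whole numbers with no normalization, and every gene row named a gene. Counts of the 43 members were summed over the cells of a library, marker class or listed type and divided by all UMIs of those cells. Fixed marker classes, other than Dcn + Lum, are cells passing exactly 1 of 8 pairs with 2 or more UMIs together, and Rax, Plvap and the other added classes exclude Dcn + Lum cells. Cell types of library 7 came from the study's list, held here for 1999 cells, of which only names were used. Members of at least 200 UMIs were named with their values in each library or class, and others where they had at least 10 UMIs in 1 class or were at 0. The families and gene lists, like the members themselves, were chosen with earlier results of these data known. Names outside that rule (Prg4 and the other leading genes, and members of collagen IV with few UMIs) were given after their values were seen. The fold rule was also run on simulated counts, and no result of that run is given or used here. No doublet caller was used, and cells passing another pair were left out as an alternative. Cells were thinned to 500 UMIs where shares were compared across depths. Intervals are at 95% and a count minimum of 50 cells was set for classes under the fold rule. Python 3.11.15, numpy 2.4.6, scipy 1.17.1 and matplotlib 3.10.9 were used. Alternatives were other totals, cells of at least 1000 UMIs, means over cells, other Dcn + Lum thresholds, a pseudocount of 1 CPM, a 2-fold rule, and the collagen level of listed microglia subtracted. Leaving out shared barcodes, Dcn or Lum alone, and the split of listed pericytes were added after the data were seen.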

Additional observations from a re-analysis of the deposited data

How the results depend on the processing

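No paired analysis was possible because the region and sleep group of 8 libraries are not assigned, so that libraries could not be paired across sleep groups or regions. Cell classes were set against other cells of the same library, and no test over libraries was part of the design. Of 204 alternative values, 106 stayed within the interval of the main value (or within 1.5 times a count) and 98 moved outside it. The median collagen level over libraries, 333 CPM, became 474 without mitochondrial, hemoglobin and Gh UMIs in the totals, 233 in cells of at least 1000 UMIs and 384 as a mean over cells. In Dcn + Lum cells, 2974 CPM became 1999 with a threshold of 1 UMI, 3292 with 3, 3251 without cells passing another pair, 3335 with the smaller totals, 2513 in cells of at least 1000 UMIs and 3581 as a mean over cells. With Lum alone as the marker it was 3344 CPM. This differs from the 15 Dcn + Lum cells with Lum and no Dcn, at 2322 CPM. The 156 with Dcn and no Lum were at 2522 CPM. Listed pericytes went from 1893 CPM to 3169 in cells of at least 1000 UMIs, 1204 without Dcn + Lum cells and, in an alternative chosen after seeing the data, 1647 without the cell with most Col3a1 UMIs, and subtracting the microglia level left 118 CPM in endothelial cells and 331 in VSMCA. Of the 136 CPM subtracted, Col27a1, which was highest in microglia, made up 90.7 CPM. The subtraction is therefore no measure of free RNA. Over all libraries the number of members called in Dcn + Lum cells, 13 beside 1.07% of all genes, became 20 with a 2-fold rule, 19 with a pseudocount of 1 CPM and 10 in cells of at least 1000 UMIs. The share of all genes called was not computed for these alternatives, so the changed counts are not read as a result about collagens. The share of collagen I UMIs in Dcn + Lum cells, 33.4%, was 41.0% with a threshold of 1 UMI and 29.0% with 3. Col1a1 to Col1a2, 0.253 over all cells, was 0.213 in cells of at least 1000 UMIs and 0.469 in Dcn + Lum cells. Col4a1 to Col4a2, 1.43 over all cells, was 1.57 in cells of at least 1000 UMIs and 1.0 in Dcn + Lum cells. Col6a1 to Col6a2, 1.16 over all cells, was 0.412 in Cldn5 + Flt1 cells, below 1 where the main ratio, whose interval spans 1 (0.952 to 1.40), was above it. The cause of these shifts was not tested beyond the cells and totals each alternative leaves out. Depth limits members of few UMIs.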
